A study of Brassica rapa subsp. pekinensis with 2 samples.

Results

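The miR168 and miR403 families were followed in small RNA libraries of Chinese cabbage (Brassica rapa subsp. pekinensis), where small RNA was sequenced to relate miRNAs to anther development. Members were all listed miRNAs named miR168 or miR403, or by these precursors, with any species prefix, arm or edit suffix, and each sequence was counted once. This gave 15 of the 1152 distinct sequences, 10 of miR168 and 5 of miR403, listed under 18 names in 20 records. ‘Ant’ holds anthers stripped from flower buds of different sizes, and ‘Mix’ holds the roots, stems and leaves of seedlings that had reached 4 true leaves. Both came from the line ‘FT’, a double haploid obtained from microspore culture, and each is 1 library with no replicate. Listed miRNAs held 1393755 reads in ‘Mix’ and 1346716 in ‘Ant’. The sample labels give vernalization at 4 °C for 20 days for the seeds of both groups, and the methods of the study give it for ‘Ant’ alone, so that tissue, age and cold treatment cannot be told apart. ‘Ant’ joins developmental stages and ‘Mix’ joins organs. More cells that hold a miRNA and more of it per cell cannot be told apart in either.

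ARGONAUTE (AGO) proteins hold small RNAs and use them to find complementary transcripts, which are then cut or kept from translation. In Arabidopsis, miR168 guides the cutting of the mRNA of AGO1, the protein through which most plant miRNAs act, and this forms a feedback loop on the miRNA pathway itself. In the same species miR403 targets the mRNA of AGO2, a protein known for its part in defence against viruses. Each miRNA is cut from a hairpin precursor as a duplex of a 5p and a 3p strand. The strand known as the guide is the 5p strand of miR168 and the 3p strand of miR403. The opposite strand, the passenger, is commonly lost when the guide is loaded. Messenger RNA of AGO genes was not analysed here.

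The most read sequences of each arm are shown first, because the differences between ‘Ant’ and ‘Mix’ turn on the arms. They are written 5′ to 3′ as the table lists them, with T for U, and capitals mark the seed, bases 2 to 8.
bra-miR168a-5p: tCGCTTGGtgcaggtcgggaa
bra-miR168b-5p_R-1: tCGCTTGGtgcaggtcggga
bra-miR168a-3p: cCCGCCTTgtatcaagtgaat
bra-miR168b-3p: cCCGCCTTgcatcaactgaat
bra-miR403-3p: tTAGATTCacgcacaaactcg
bra-miR403-5p: tGTTTTGTgcgtgaatctaatt
The 20 nt sequence bra-miR168b-5p_R-1 is bra-miR168a-5p without its last base. The 3p sequences bra-miR168a-3p and bra-miR168b-3p differ at T10C and G16C, counted from the 5′ end, with the base of bra-miR168a-3p first. All 6 of the 5p sequences of miR168 share the seed CGCTTGG, which no other sequence of the table has. The 3 sequences of the 3p arm of miR403 share TAGATTC, again found nowhere else in the table. The seed of the 5p arm of miR403, GTTTTGT, is also that of bra-miR5711, which was noticed after its values were seen and went from 802 reads in ‘Mix’ to 3594 in ‘Ant’.

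The listed hairpins show which sequences lie whole in 1 locus, and the rest of the genome was not searched. Of the 88 miRNA genes of RefSeq for the assembly CAAS_Brap_v3.01, 78 have a hairpin with the same start and end in the table, so the positions were read as those of this assembly. MIR168A (A06:27916704-27916836, plus strand) overlaps the protein-coding gene LOC103827807, MIR168C (A03:24815803-24815935, plus strand) overlaps the lncRNA LOC117133042, and no other RefSeq gene overlaps MIR168B (A01:5549037-5549163, plus strand) or MIR403 (A05:317610-317720, minus strand). The RefSeq table used here gives no strand or exons for these genes. The hairpins of MIR168A, MIR168B and MIR403 are written 5′ to 3′ with the 2 arms in capitals.
MIR168A: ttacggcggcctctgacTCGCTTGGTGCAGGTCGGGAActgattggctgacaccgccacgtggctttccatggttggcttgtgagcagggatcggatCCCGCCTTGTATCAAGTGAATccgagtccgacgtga
MIR168B: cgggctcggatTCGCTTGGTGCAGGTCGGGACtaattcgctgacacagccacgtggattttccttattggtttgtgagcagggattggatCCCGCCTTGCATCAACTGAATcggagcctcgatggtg
MIR403: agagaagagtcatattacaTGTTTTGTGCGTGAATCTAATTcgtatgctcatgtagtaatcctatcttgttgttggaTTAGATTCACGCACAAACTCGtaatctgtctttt
miR168 had 6 loci once overlapping positions were joined, on A01, A03 and A06 and 3 on A08, while miR403 had 1 on A05. Of the A08 loci, a pair holds the same hairpin 4109 bases apart, and both overlap the lncRNA LOC117127311, one of them also the protein-coding gene LOC103833364. The 20 nt form of the 5p arm lies in every miR168 hairpin, and the 21 nt bra-miR168a-5p in those of A06 and A08. The table also lists it with MIR168B, under a name with its last base changed, since that hairpin has C there. bra-miR168a-3p was found whole in the A06 hairpin alone, and bra-miR168b-3p in those of A01 and A03. The reads of all 10 miR168 sequences hold fractions in at least 1 library, and those of all 5 miR403 sequences are whole numbers. As bra-miR168a-3p is among the 10, its match to 1 listed hairpin does not trace all its reads to that locus. A second, longer hairpin listed for MIR403 contains the first, but its listed position would move that start from 317610 to 317557, so its position was not used.

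The 5p arm of miR168, the AGO1-directed strand, was read less in ‘Ant’ than in ‘Mix’. bra-miR168a-5p had 25177 reads in ‘Mix’ and 9521 in ‘Ant’, and was the 12th and 26th most read sequence of the 2 libraries. Its log2 ratio of ‘Ant’ to ‘Mix’, taken on the normalized reads of the authors, was -1.45 (exact 95% interval -1.48 to -1.41), a level 2.73-fold lower in ‘Ant’. The 20 nt form bra-miR168b-5p_R-1 had 2811 reads in ‘Mix’ and 2249 in ‘Ant’, a log2 ratio of -0.37 (interval -0.45 to -0.29). The shorter form thus differed less between the libraries than the form with 1 more base. Summed over its 6 sequences, the arm had 28188 reads in ‘Mix’ and 11884 in ‘Ant’, a log2 ratio of -1.29 (interval -1.32 to -1.26). These intervals hold only the error of counting. Reads without molecular identifiers are not separate molecules, and no second library shows how far plants of 1 group differ.

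The 3p arm of miR168, the strand opposite the guide, differed more. bra-miR168a-3p, the strand that the A06 hairpin alone holds, had 20821 reads in ‘Mix’ and 2887 in ‘Ant’, a log2 ratio of -2.90 (interval -2.95 to -2.84) or 7.44-fold lower in ‘Ant’. bra-miR168b-3p, found whole in the hairpins of A01 and A03, had 6214 reads in ‘Mix’ and 584 in ‘Ant’, a log2 ratio of -3.46 (interval -3.58 to -3.33). Its 22 nt form with an added T, lja-miR168-3p_L-1R+1, had 483 reads in ‘Mix’ and 44.5 in ‘Ant’, a log2 ratio of -3.49 (interval -3.98 to -3.06). All 3 had lower ratios than either of the abundant 5p sequences. The arm as a whole had 27583 reads in ‘Mix’ and 3521 in ‘Ant’, a log2 ratio of -3.02 (interval -3.07 to -2.96).

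**Figure D1:**
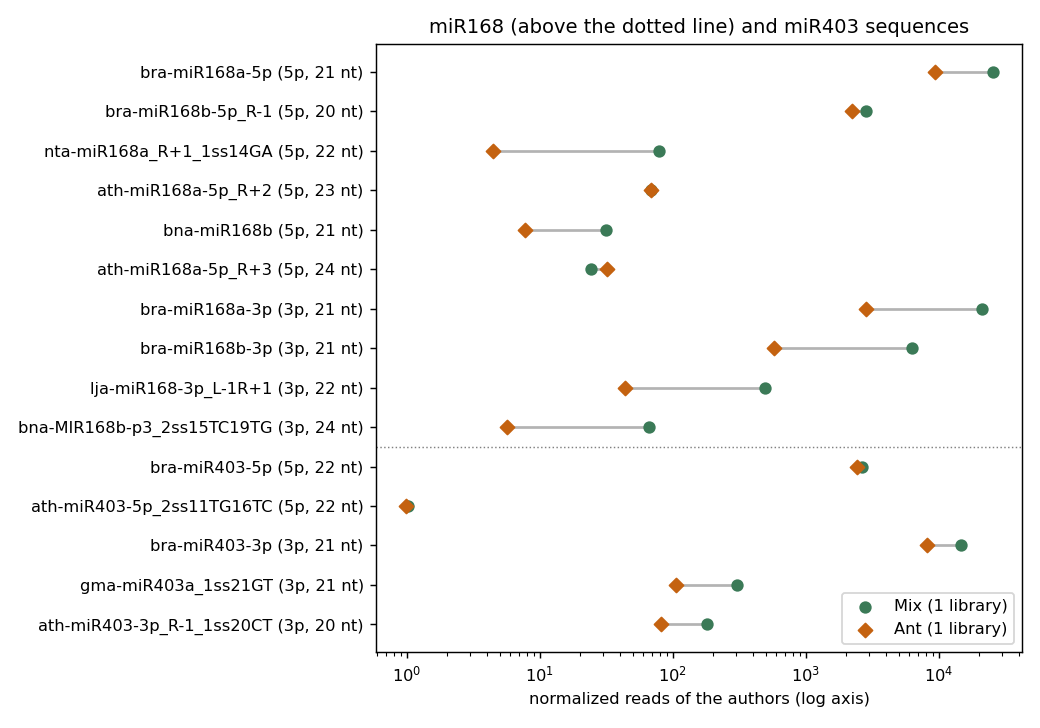
Normalized reads of the authors (x axis, log scale) for each of the 15 miR168 and miR403 sequences (y axis, with arm and length), with circles for the ‘Mix’ library and diamonds for the ‘Ant’ library. The miR168 3p sequences show the widest gaps among the abundant ones, as for bra-miR168a-3p with 21154 normalized reads in ‘Mix’ and 2842 in ‘Ant’, while the symbols of bra-miR403-5p nearly meet.

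The guide arm of miR403, directed at AGO2 in Arabidopsis, was lower in ‘Ant’ by less than 2-fold. bra-miR403-3p had 14551 reads in ‘Mix’ and 8227 in ‘Ant’, and was the 17th and 30th most read sequence. Its log2 ratio was -0.87 (interval -0.91 to -0.83), a level 1.83-fold lower in ‘Ant’. The passenger strand bra-miR403-5p had 2601 reads in ‘Mix’ and 2461 in ‘Ant’, a log2 ratio of -0.13 (interval -0.21 to -0.05). That strand stood close to level in the 2 libraries, with an interval that still lay below 0. The arm totals of miR403 were -0.88 on the log2 scale for 3p (interval -0.92 to -0.84, 15026 and 8417 reads) and -0.13 for 5p (interval -0.21 to -0.05, 2602 and 2462 reads).

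Over all sequences, miR168 took 4.00% of the reads on listed miRNAs in ‘Mix’ (Wilson 95% interval 3.97% to 4.03%) and 1.14% in ‘Ant’ (1.13% to 1.16%). miR403 took 1.26% in ‘Mix’ (1.25% to 1.28%) and 0.808% in ‘Ant’ (0.793% to 0.823%). The normalized reads of miR168 went from 56663 in ‘Mix’ to 15162 in ‘Ant’, a log2 ratio of -1.90 (interval -1.93 to -1.88), and those of miR403 from 17910 to 10708, a log2 ratio of -0.74 (interval -0.78 to -0.71). The ratio of the 2 families within a library needs no scaling. There were 3.16 reads of miR168 for each read of miR403 in ‘Mix’ and 1.42 in ‘Ant’, a log2 odds ratio of -1.16 (95% interval -1.20 to -1.12). miR168 was thus the more read family in both libraries, and its lead over miR403 was smaller in ‘Ant’.

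A sequence was called when its absolute log2 ratio was above 1 and its reads, set against those of all other listed miRNAs, gave p of at most 0.05 in Fisher's exact test (two-sided). This test compares 2 libraries and not the conditions. Of all 1152 sequences 46.0% were called, 19.3% as lower in ‘Ant’ and 26.7% as higher. Of the 15 members 9 were called, all as lower, 7 of miR168 and 2 of miR403. Among the 784 sequences with at least 10 reads in a library, 504 were called, 213 of them as lower. The same 9 members were called of the 14 in that set. The share of members called in either direction was then close to that of all sequences, and only their direction differed. Called were all 4 of the 3p sequences of miR168, bra-miR168a-5p, both rare 5p forms described further on as nta-miR168a_R+1_1ss14GA and bna-miR168b, and both rare 3p forms of miR403. A spread between plants cannot be estimated from 1 library a group, so it was also set by assumption in edgeR's exact test. With the biological coefficient of variation set to 0.2, 42.3% of all sequences were called, and again 9 of the members. With it set to 0.4, 29.5% of all sequences were called, 12.4% as lower, and 5 of the members. These 5 were the 4 3p sequences of miR168 and nta-miR168a_R+1_1ss14GA. bra-miR168a-5p was not among them (edgeR exact p = 0.0881). With TMM factors in place of the authors' scaling, bra-miR403-3p was called too, and the 3p arm of miR403 stood at -1.09.

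**Figure D2:**
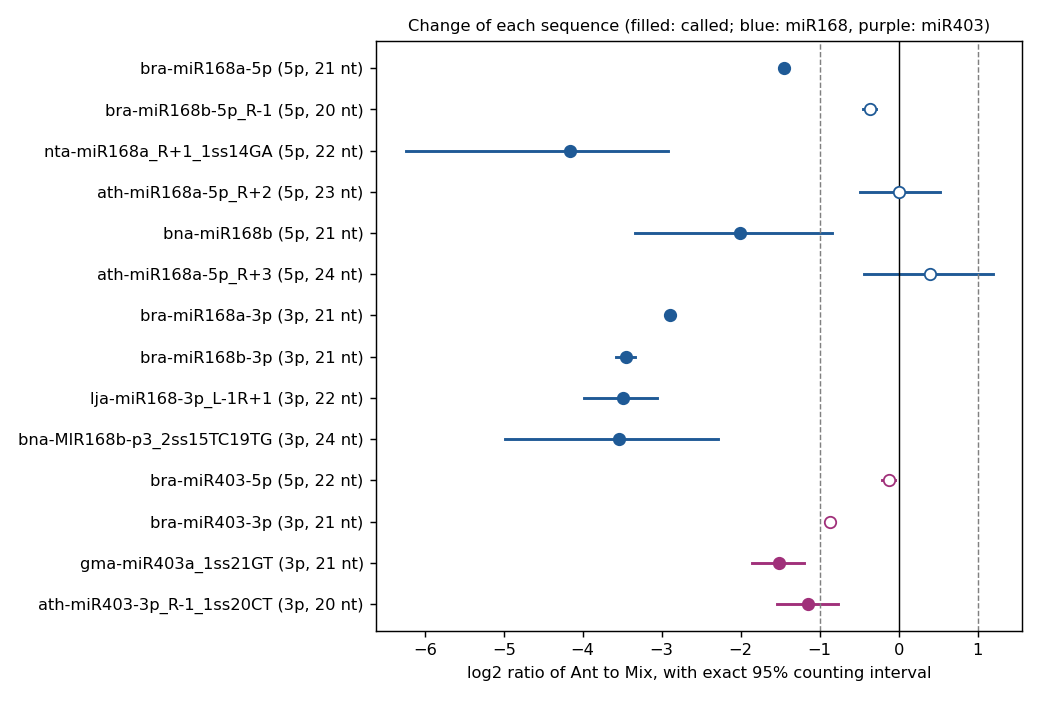
Log2 ratio of ‘Ant’ to ‘Mix’ (x axis) for the 14 sequences with at least 3 reads in a library (y axis), with lines for the exact 95% interval of counting error, filled points for called sequences and dashed lines at -1 and 1. The 4 3p sequences of miR168 lie between -3.55 and -2.90, while the 5p sequences spread from -4.16 to 0.39.

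The 10 miR168 sequences had a median log2 ratio of -2.46, from -4.16 to 0.39, with 8 below 0 and 2 above. The 4 miR403 sequences with at least 3 reads in a library had a median of -1.01, from -1.52 to -0.13, and all 4 were below 0. The median over the 1028 sequences of the table with that many reads was 0.24. The members are forms of the same arms read in the same libraries, so they are not replicates. These medians also weigh a rare form like an abundant one, where the totals by reads were -1.90 for miR168 and -0.74 for miR403. The remaining member, ath-miR403-5p_2ss11TG16TC, had 1 read in each library and is given no ratio.

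The arms of miR168 were almost equally read in ‘Mix’ and unequally in ‘Ant’. The 3p arm held 49.5% of the miR168 reads in ‘Mix’ (Wilson interval 49.0% to 49.9%) and 22.9% in ‘Ant’ (22.2% to 23.5%), a log2 odds ratio of -1.72 (interval -1.78 to -1.66). There were 1.02 reads of the 5p arm for each of the 3p arm in ‘Mix’ and 3.37 in ‘Ant’. In miR403 the 3p arm, here the guide, held 85.2% in ‘Mix’ (84.7% to 85.8%) and 77.4% in ‘Ant’ (76.6% to 78.1%), a log2 odds ratio of -0.76 (interval -0.84 to -0.67, Fisher's exact p = 1.13e-62). The 3p share was lower in ‘Ant’ for both families. Relative to the guide, this left less passenger strand in miR168 and more in miR403.

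**Figure D3:**
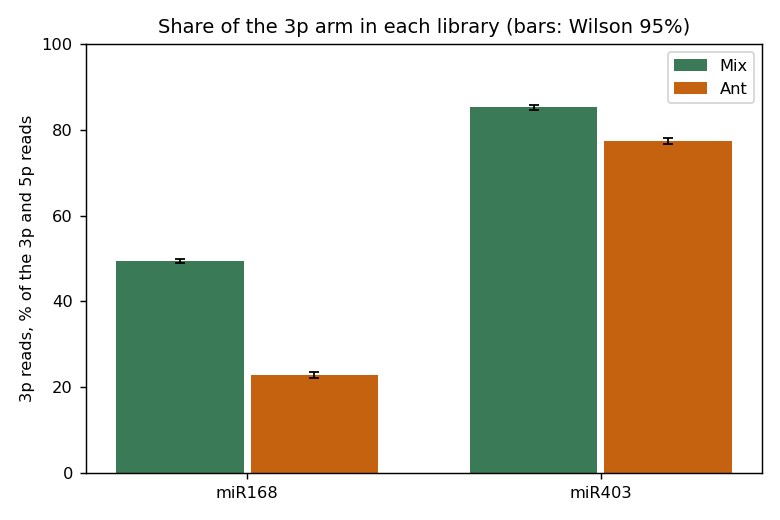
Reads of the 3p arm as a percent of the 3p and 5p reads (y axis) for miR168 and miR403 (x axis) in the ‘Mix’ and ‘Ant’ libraries, with Wilson 95% intervals of counting error. The miR168 bars stand at 49.5% and 22.9%, and the miR403 bars at 85.2% and 77.4%.

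Within the 3p arm of miR168, bra-miR168a-3p, found whole in the A06 hairpin alone, gained share on bra-miR168b-3p, found in those of A01 and A03. bra-miR168a-3p made up 77.0% of the reads of both 21 nt sequences in ‘Mix’ (76.5% to 77.5%) and 83.2% in ‘Ant’ (81.9% to 84.4%), a log2 odds ratio of 0.56 (interval 0.43 to 0.70, Fisher's exact p = 3.69e-17). This comparison was chosen after its values were seen. A difference of this kind could not be read in the 5p arm, whose sequences lie in hairpins of several loci.

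Unequal change of the arms was common in the table. Among the 88 hairpins with at least 100 reads of each arm in a library and none under 3, the median absolute difference between the log2 ratios of the arms was 1.5, and it was above 1 for 57. The log2 ratio was -1.45 for the 5p and -2.90 for the 3p sequence of MIR168A, and -0.13 and -0.87 for those of MIR403. The less read arm changed relative to the other by -1.45 in MIR168A and by 0.74 in MIR403. The gap of MIR168A was thus close to the median of all hairpins and that of MIR403 below it, although the 5p sequence of MIR168A also lies in the A08 hairpins. For MIR168B and MIR168C the less read arm changed relative to the other by -2.01 and 3.09, both larger in size than that median. These gaps cannot be assigned to their loci. The 5p sequence listed with MIR168B, bra-miR168a-5p, is not held whole by that hairpin, and the one listed with MIR168C is the 20 nt form, which every miR168 hairpin holds. Shared sequences, such as bra-miR156a-5p, also enter other pairs of the 88.

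**Figure D4:**
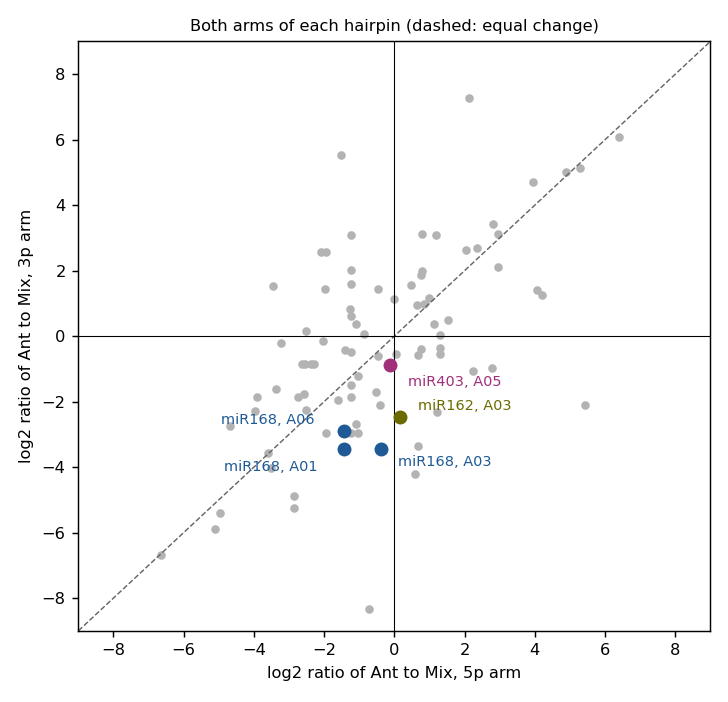
Log2 ratio of ‘Ant’ to ‘Mix’ for the 5p arm (x axis) and the 3p arm (y axis) of the 88 hairpins with at least 100 reads of each arm in a library, with the hairpins of miR168, miR403 and miR162 in colour and labelled by chromosome, and a dashed line where both arms change alike. MIR168A on A06 and MIR403 on A05 lie below that line, with 3p ratios of -2.90 and -0.87, while the 5p values of A01 and A03 are of sequences shared with other miR168 loci or not held whole.

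The 5p forms of miR168 were also compared by length, though their ratios did not follow it in order. Sequences of 21 nt held 89.4% of the 5p reads in ‘Mix’ and 80.2% in ‘Ant’, and the 20 nt form held 9.97% (9.63% to 10.3%) and 18.9% (18.2% to 19.6%), a log2 odds ratio of 1.08 (interval 0.99 to 1.16). The 20 nt share was compared after its values were seen. The 20 nt form lies in every miR168 hairpin, and the 21 nt bra-miR168a-5p lies whole only in those of A06 and A08. Length and locus therefore cannot be told apart in this share. Forms of 22 nt or more held 0.60% of the 5p reads in ‘Mix’ (0.516% to 0.697%) and 0.896% in ‘Ant’ (0.738% to 1.08%), a log2 odds ratio of 0.58 (Fisher's exact p = 0.00179). With each name counted once in place of each sequence this was 0.17 (Fisher's exact p = 0.319), since the 22 nt form and bra-miR168a-5p carry 2 names each. It was 1.42 (Fisher's exact p = 2.08e-11) over sequences with a genome position and 1.66 (Fisher's exact p = 2.33e-05) over those found whole in a hairpin. The size of this difference therefore depended on which rare forms were counted.

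These long 5p forms went different ways. The 24 nt ath-miR168a-5p_R+3, which lies whole in the A08 hairpins alone, had 24 reads in ‘Mix’ and 32.5 in ‘Ant’, a log2 ratio of 0.39 (interval -0.44 to 1.20). The 23 nt ath-miR168a-5p_R+2 had 67.0 reads in ‘Mix’ and 69.5 in ‘Ant’, a log2 ratio of 0.01 (interval -0.49 to 0.52). Neither differed beyond counting error. The 22 nt nta-miR168a_R+1_1ss14GA had 78.0 reads in ‘Mix’ and 4.5 in ‘Ant’, a log2 ratio of -4.16 (interval -6.24 to -2.92), and has no genome position in the table.

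Rare forms with a changed base are shown because they were called although no listed hairpin holds them whole.
nta-miR168a_R+1_1ss14GA: tCGCTTGGtgcagatcgggacc
bna-miR168b: tCGCTTGGtgcaggtcgagaa
bna-MIR168b-p3_2ss15TC19TG: gATCCCGCcttgcaccaagtgaat
gma-miR403a_1ss21GT: tTAGATTCacgcacaaacttt
ath-miR403-3p_R-1_1ss20CT: tTAGATTCacgcacaaactt
Against bra-miR168a-5p, nta-miR168a_R+1_1ss14GA differs at G14A and A21C and bna-miR168b at G18A, with the base of bra-miR168a-5p first. bna-miR168b had 31.0 reads in ‘Mix’ and 7.92 in ‘Ant’, a log2 ratio of -2.01 (interval -3.33 to -0.85). The 24 nt bna-MIR168b-p3_2ss15TC19TG differs from the arm of the A08 hairpin it is listed with at T15C and T19G, and had 65.1 reads in ‘Mix’ and 5.75 in ‘Ant’, a log2 ratio of -3.55 (interval -4.98 to -2.28). All 3 were lower in ‘Ant’, with under 100 reads in each library. Against bra-miR403-3p, gma-miR403a_1ss21GT differs at C20T and G21T, and ath-miR403-3p_R-1_1ss20CT, 1 base shorter, at C20T. gma-miR403a_1ss21GT had 297 reads in ‘Mix’ and 107 in ‘Ant’, a log2 ratio of -1.52 (interval -1.85 to -1.20). ath-miR403-3p_R-1_1ss20CT had 178 reads in ‘Mix’ and 83.0 in ‘Ant’, a log2 ratio of -1.15 (interval -1.54 to -0.76). Both ratios fell past the threshold that bra-miR403-3p did not reach. The interval of ath-miR403-3p_R-1_1ss20CT nevertheless holds -1 and all of that of bra-miR403-3p (-0.91 to -0.83). Sequences not found whole in a hairpin made up 1.30% of the miR168 reads in ‘Mix’ and 0.858% in ‘Ant’, and 2.70% and 1.76% of those of miR403. For miR168 these shares also hold lja-miR168-3p_L-1R+1, with 483 reads in ‘Mix’, and ath-miR168a-5p_R+2, which no listed hairpin holds whole either.

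The miR168 hairpins are rich in GC, and that of miR403 is close to the table's median. MIR168A has 58.6% GC, MIR168B 55.1% and MIR403 35.1%, where the median of the 739 hairpins with a position was 34.7%. Their folding free energies were -69.3, -64.7 and -41.7 kcal/mol beside a median of -70.1 kcal/mol. The folding index of the authors, which divides the energy by length and GC content, was 0.90 for MIR168A and MIR168B and 1.10 for MIR403, below the median of 1.30.

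Among the 80 miRNA numbers with at least 100 normalized reads in a library, miR168 was the 7th most read in ‘Mix’ and the 17th in ‘Ant’, and miR403 the 13th and the 20th. Ordered from the lowest log2 ratio, miR168 was the 19th and miR403 the 36th, with a median over the 80 numbers of -0.50 and 44 of them below 0. The totals nearest to that of miR168 were those of miR166 (log2 -1.77, regulator of HD-ZIP III genes), miR164 (-1.75, regulator of NAC genes) and miR5719 (-1.75). Those nearest to miR403 were miR1140 (-0.74), miR5712 (-0.76) and miR5139 (-0.79). This likeness rests on a single ratio of 2 libraries. The intervals of miR1140 (-0.78 to -0.70), miR5712 (-0.90 to -0.62) and miR5139 (-1.07 to -0.51) overlapped that of miR403. Those of miR166 (-1.78 to -1.75), miR164 (-1.80 to -1.71) and miR5719 (-1.77 to -1.73) all lay apart from that of miR168.

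**Figure D5:**
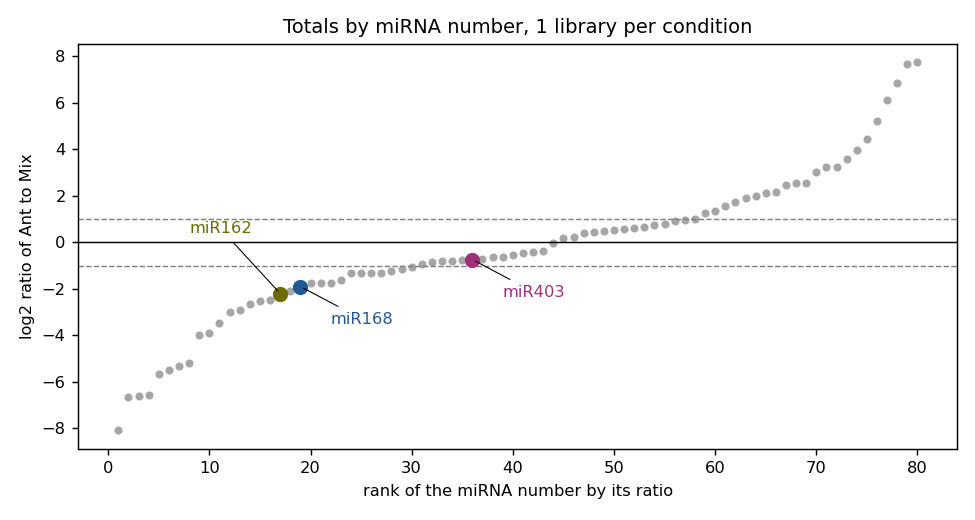
Log2 ratio of ‘Ant’ to ‘Mix’ (y axis) of the summed reads of each of 80 miRNA numbers, in order of the ratio (x axis), with reads under 3 set to 3 and dashed lines at -1 and 1. miR168 is the 19th from the lowest at -1.90, miR162 the 17th and miR403 the 36th at -0.74.

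miR162 was set beside these families, since in Arabidopsis it targets DCL1, the enzyme that cuts miRNA hairpins out of their transcripts. Its 8 sequences had 17470 normalized reads in ‘Mix’ and 3790 in ‘Ant’, a log2 ratio of -2.20 (interval -2.26 to -2.15). Like miR403 it has its guide on the 3p arm, which had 17027 reads in ‘Mix’ and 3668 in ‘Ant’ (log2 ratio -2.26), while its 5p arm had 171 and 180 normalized reads (log2 ratio 0.08, interval -0.23 to 0.39). The 3 miRNAs directed at AGO1, AGO2 and DCL1 in Arabidopsis were all less read in ‘Ant’, as were 44 of the 80 numbers. miR403, at -0.74, lay near the median of all 80 numbers, -0.50.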

How the data were processed

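Small RNA of 1 ‘Ant’ and 1 ‘Mix’ library was prepared with a TruSeq small RNA kit. Per the paper's methods, adapter dimers, low-complexity reads and common RNA families were removed, and sequences of 18 to 25 nt were mapped to miRBase 21.0 precursors. Deposited values are read numbers for each miRNA, here called estimated counts because some hold fractions. The normalized signal was made by the authors by multiplying the reads of each library by 1 factor, 1.016 for ‘Mix’ and 0.98425 for ‘Ant’. The authors also deposited GC percent, folding energy and an energy score for each hairpin. Listed reads, each sequence once, came to 1393755 in ‘Mix’ and 1346716 in ‘Ant’, and a count of 0 allows 3 reads, 0.000215% and 0.000223% of them.

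Reads were rounded for tests, and reads under 3 were set to 3 in ratios. Intervals are exact binomial for ratios, Wilson for shares and Woolf for odds ratios. The call rule was also run on simulated counts with known changes and counting error alone. That run holds no variation between plants, so it cannot show how the calls would hold in other libraries. Alternatives were scaling by listed reads, by the valid reads of the study and by TMM factors, counting by name, read minimums, other tests, a log2 threshold of 2, a pseudocount of 10 and subsets of sequences, of which those found whole in a hairpin were added after the data were seen. The members and lists were chosen with earlier results of these data known. Every member with at least 3 reads in a library is described, and other families are named by nearness of their ratio. The tools were edgeR 4.0.16 in R 4.3.3, and scipy 1.17.1, matplotlib 3.10.9, statsmodels 0.14.6, pandas 2.3.3 and numpy 2.4.6 in Python 3.11.15.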

Additional observations from a re-analysis of the deposited data

How the results depend on the processing

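Of 71 alternative values for the totals and balances of both families, 69 kept their direction and their side of the threshold, an absolute log2 ratio of 1 for totals and p of 0.05 for balances. The log2 total of miR168 ranged from -2.11 to -1.75, that of miR403 from -0.95 to -0.65, and the log2 odds of the arms from -1.73 to -1.66 for miR168 and from -0.76 to -0.74 for miR403. TMM factors moved every log2 ratio by -0.21, which put the 3p arm of miR403 at -1.09 and past the threshold. Members called were then 10 in place of 9, with 515 of all 1152 sequences called in place of 530, 232 of the 515 as lower. The log2 odds ratio of long 5p forms of miR168, 0.58, ranged from 0.17 with names counted once to 1.42 with a genome position required and 1.66 with a whole match to a hairpin required. With a spread of 0.4 assumed, edgeR's exact test called 5 members and 340 of 1152 sequences, against 9 and 530 by the main rule. A log2 threshold of 2 left 6 members, all as lower, and 326 of all sequences, 139 of them as lower. The long forms have no bra- name, so that restriction gave no value for them. No paired analysis was possible because each group holds 1 library, and for the same reason no replicate could be left out. A low number of reads limits the forms under 100 reads, whose intervals span more than 1 log2 unit.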
